A study of Mus musculus with 8 samples.

Results

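Testis RNA was examined for 10 genes of glycolysis and of the steps that follow it, namely *Hk1*, *Gpi1*, *Pfkp*, *Aldoart1*, *Gapdhs*, *Pgk2*, *Pgam2*, *Eno4*, *Ldhc* and *Pdha2*. They are 10 of the 54532 genes measured, chosen by name as forms of the pathway's enzymes that testis is known to use, and *Pgam2* was selected on the difference in its FPKM between the genotypes compared here. Bulk RNA sequencing of the whole testis gave 1 library for each of 4 *Sync-Spdya* fl/fl mice, the control libraries, and 4 *Sync-Spdya* cKO mice, the cKO libraries. Both groups were juvenile mice on a C57BL/6J background carrying *Spdya* alleles with loxP sites around exon 2. Both had their germ cells synchronized by an inhibitor of retinoic acid (RA) synthesis followed by RA. Both received tamoxifen at RA7.5 and RA8.5 by the sample labels, that is, on those days after RA, and the testes were taken at RA11.5. Only the cKO mice carried *Ddx4*-CreERT2, a tamoxifen-dependent recombinase driven from the germ cell gene *Ddx4*, so that somatic cells of the testis keep *Spdya* and Cre itself had no control group.

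Glycolysis turns glucose into pyruvate in a series of enzyme steps. Lactate dehydrogenase then interconverts pyruvate and lactate, and pyruvate dehydrogenase passes pyruvate to the mitochondria. Spermatogenic cells replace several of these enzymes with forms of their own. Some of these genes, such as *Pgk2* and *Pdha2*, are intronless copies on autosomes of a parent gene on the X chromosome, which is silenced in pachytene spermatocytes. Others, such as *Gapdhs*, are best known from spermatids and sperm, where their products sit on the fibrous sheath of the tail. Pachytene spermatocytes take up lactate made by Sertoli cells, and LDHC is the lactate dehydrogenase subunit of the germ line.

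Values are FPKM, which divide a gene's fragment count by its length in kilobases and by a scaled library size. The fragments on genes recovered from these values ranged from 13978342 to 19583091 per library. At this depth the 9 genes with expression rested on 48 fragments (*Gapdhs*) to 15589 fragments (*Ldhc*) per library. *Spdya*, the targeted gene, had 20.8, 21.0, 23.8 and 19.7 FPKM in the control libraries and 30.5, 22.2, 26.1 and 17.7 FPKM in the cKO libraries. The groups overlapped, and a value over the whole gene does not show the loss of exon 2. Control replicate 1 stood apart, with 0.464% of its fragments on mitochondrial genes against 2.20% to 3.74% in the others.

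The promoters of 4 of these genes are shown because their levels carry the results below, *Ldhc* and *Pdha2* as the most abundant forms, *Pgam2* for its difference between the groups and *Pgk2* as the other copy of an X-linked gene. Each window runs from 250 bases before to 50 bases after the RefSeq start site, 5′ to 3′ along the gene, on GRCm38.p6. Capitals mark TGACG, the half-site of the cAMP response element that CREM and CREB bind, and AACNG, the core bound by MYB factors, on either strand.
*Ldhc*, chr7:46861013-46861312, strand +: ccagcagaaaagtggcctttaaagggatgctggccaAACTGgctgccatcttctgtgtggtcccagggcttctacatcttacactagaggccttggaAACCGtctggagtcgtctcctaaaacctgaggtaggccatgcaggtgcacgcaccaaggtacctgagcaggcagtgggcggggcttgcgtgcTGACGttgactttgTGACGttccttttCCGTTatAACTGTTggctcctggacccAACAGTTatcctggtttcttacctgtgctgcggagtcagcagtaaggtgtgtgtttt
*Pgam2*, chr11:5803747-5804046, strand -: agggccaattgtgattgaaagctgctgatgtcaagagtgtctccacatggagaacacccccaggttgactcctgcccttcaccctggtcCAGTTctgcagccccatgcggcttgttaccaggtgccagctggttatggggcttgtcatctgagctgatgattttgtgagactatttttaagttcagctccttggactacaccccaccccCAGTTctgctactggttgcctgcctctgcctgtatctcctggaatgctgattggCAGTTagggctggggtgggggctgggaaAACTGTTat
*Pdha2*, chr3:141212306-141212605, strand -: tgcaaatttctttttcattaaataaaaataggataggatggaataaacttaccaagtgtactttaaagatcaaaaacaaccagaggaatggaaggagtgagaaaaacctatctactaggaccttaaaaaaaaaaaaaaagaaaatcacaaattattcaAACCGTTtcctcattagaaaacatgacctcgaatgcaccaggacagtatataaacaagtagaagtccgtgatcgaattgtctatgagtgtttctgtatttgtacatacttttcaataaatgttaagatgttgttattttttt
*Pgk2*, chr17:40208560-40208859, strand -: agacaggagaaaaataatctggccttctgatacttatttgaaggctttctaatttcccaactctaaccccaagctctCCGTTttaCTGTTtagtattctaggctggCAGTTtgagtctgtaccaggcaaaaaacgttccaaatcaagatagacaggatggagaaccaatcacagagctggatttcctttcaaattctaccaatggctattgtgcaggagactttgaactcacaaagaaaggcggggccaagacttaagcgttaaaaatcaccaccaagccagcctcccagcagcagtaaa

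The *Ldhc* window held 2 TGACG half-sites, 61 and 47 bases before the start site on the strand of the gene, and 7 AACNG cores. The *Pgam2* window held 5 AACNG cores and 5 E-boxes (CANNTG) and no TGACG. Its RefSeq start lies 63 bases upstream of the gene model used for the FPKM values. The *Pdha2* window held 2 AACNG cores that overlap each other, and the *Pgk2* window held 3. Of the 10 genes 9 had a window in the RefSeq table, 12 windows in all, and TGACG was found in the first windows of *Ldhc* and *Gapdhs* alone. The full element TGACGTCA was in none of the 12. Among all 32851 windows of the same length, 20.8% held TGACG, 1.79% the full element, 80.3% AACNG and 72.3% CANNTG, so an AACNG match is common among promoters.

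The levels of the 10 genes spanned a wide range, down to none. In the control libraries *Ldhc* was the most abundant with a mean of 524 FPKM ± 128 (SD, n = 4), followed by *Pdha2* with 82.7 ± 18.6 and *Pgam2* with 40.6 ± 13.9. *Gpi1* followed with 19.6 ± 3.45, *Eno4* with 11.9 ± 2.22, *Hk1* with 5.08 ± 0.469, *Pgk2* with 4.68 ± 0.901, *Gapdhs* with 3.93 ± 1.43 and *Pfkp* with 2.17 ± 0.373. *Aldoart1* was listed at 0 in the 4 control libraries. The ranges of the control libraries overlapped between *Pgam2* and *Gpi1*, between *Hk1* and *Pgk2*, between *Pgk2* and *Gapdhs*, and between *Gapdhs* and *Pfkp*, so the order within these neighbours does not exceed their spread. The other neighbours in the order did not overlap. Per length, the RNA of *Ldhc*, whose product acts on the pyruvate that glycolysis makes, thus far exceeded that of *Pgk2*, *Gapdhs* or *Hk1*.

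**Figure D1:**
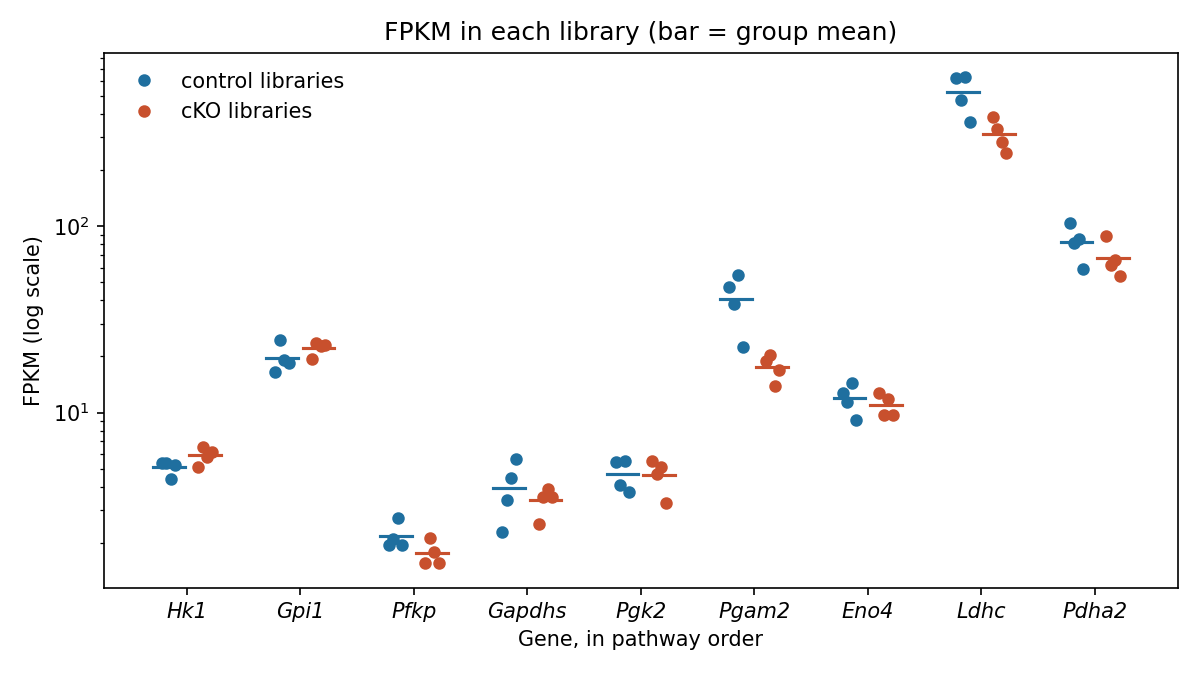
FPKM (log scale) of 9 genes, in pathway order, in each control library (blue) and each cKO library (red), with a bar at each group's mean. *Aldoart1* is left out because it was listed at 0 in 7 libraries. *Ldhc* stands above all others, and the groups are apart for *Pgam2* alone.

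The first steps prepare glucose for cleavage. *Hk1* (chromosome 10, 62268855 to 62379908 on GRCm38) encodes hexokinase, which phosphorylates glucose and which has transcripts particular to the male germ line. It had 5.37, 5.36, 4.39 and 5.20 FPKM in the control libraries and 5.11, 6.53, 5.78 and 6.17 FPKM in the cKO libraries, and the groups overlapped. *Gpi1* (chromosome 7, 34201330 to 34230336) encodes glucose-6-phosphate isomerase, for which there is no second gene. It ranged from 16.5 to 24.5 FPKM in the control libraries and from 19.4 to 23.6 FPKM in the cKO libraries. *Pfkp* (chromosome 13, 6579768 to 6648777) encodes the platelet form of phosphofructokinase, the committed step. It had 1.94, 2.09, 2.72 and 1.94 FPKM in the control libraries and 1.56, 2.12, 1.77 and 1.55 FPKM in the cKO libraries. *Pfkp* overlaps *Pitrm1* on the opposite strand, which had 31.4 to 43.2 FPKM, and whether strand was used in counting is not given in the sources used here. Part of the low *Pfkp* value therefore cannot be told apart from reads of *Pitrm1*.

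*Aldoart1* (chromosome 4, 72850583 to 72852634), an intronless copy of the aldolase gene *Aldoa*, had 1 fragment in all 8 libraries, in cKO replicate 4, which gave 0.0287 FPKM. A count of 0 allows up to 3 fragments, or 0.0754 to 0.112 FPKM depending on the library. *Aldoa* (chromosome 7) had 77.5 to 98.4 FPKM in the control libraries and 96.8 to 109 FPKM in the cKO libraries. In each of the 7 libraries with 0 *Aldoart1* fragments it was at least 828-fold higher than this limit. The coding sequences of the pair are 93.9% identical, with identical runs of up to 86 bases, so the counting could have divided reads between them or dropped them. The other pairs aligned here were 73.2% to 79.6% identical, with no identical run above 28 bases.

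*Gapdhs* (chromosome 7, 30729775 to 30743681) encodes the sperm form of glyceraldehyde-3-phosphate dehydrogenase. It had 2.27, 3.39, 4.45 and 5.61 FPKM in the control libraries and 2.53, 3.54, 3.90 and 3.51 FPKM in the cKO libraries. Control replicate 4 was the highest of the 8 and control replicate 1 the lowest. The antisense gene *Gm26935*, which overlaps it, had 2.79, 6.06, 7.27 and 6.82 FPKM in the control libraries and 3.88, 5.31, 5.71 and 3.74 FPKM in the cKO libraries, again lowest in control replicate 1. Without strand the reads of the pair cannot be told apart. *Gapdh* was low as well, at 3.18, 9.62, 3.25 and 3.00 FPKM in the control libraries and 3.01 to 3.39 FPKM in the cKO libraries. Among other paralogs, *Pgam1* had 63.7 to 73.8 and *Eno1* 37.4 to 48.9 FPKM in the control libraries, and *Pdha1* 3.91 to 5.54. A loss of *Gapdh* reads in counting was not tested, so its level may be understated.

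*Pgk2* (chromosome 17, 40207015 to 40208640) encodes the germ cell form of phosphoglycerate kinase, the first step that makes ATP. It had 5.44, 4.07, 5.47 and 3.75 FPKM in the control libraries and 5.52, 4.66, 5.11 and 3.26 FPKM in the cKO libraries. The means of 4.68 ± 0.901 and 4.64 ± 0.982 FPKM (SD, n = 4 each) differed by far less than the spread between libraries. Its X-linked parent *Pgk1* had 14.8 to 22.6 FPKM in the control libraries and 15.8 to 19.5 FPKM in the cKO libraries, above *Pgk2* in each of the 8.

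*Pgam2* (chromosome 11, 5801640 to 5803733), the muscle form of phosphoglycerate mutase, which is also made in testis, had 47.1, 38.3, 54.8 and 22.4 FPKM in the control libraries. In the cKO libraries it had 18.97, 20.4, 13.9 and 17.0 FPKM. All 4 cKO libraries lay below the lowest control library, which was control replicate 4 and lay within 2 FPKM of cKO replicate 2. *Pgam1*, the widespread form of the same enzyme, had 63.7 to 73.8 FPKM in the control libraries and 69.1 to 85.4 FPKM in the cKO libraries.

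*Eno4* (chromosome 19, 58943425 to 58971421), an enolase needed in sperm, had 12.8, 11.4, 14.3 and 9.09 FPKM in the control libraries and 12.7, 9.65, 11.8 and 9.65 FPKM in the cKO libraries, with overlap. *Eno1* had 37.4 to 48.9 and 43.5 to 54.7 FPKM in the same order, and *Eno3*, best known from muscle, 74.4 to 137 and 89.9 to 135 FPKM.

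*Ldhc* (chromosome 7, 46861203 to 46878142) had 622, 478, 631 and 362 FPKM in the control libraries and 388, 334, 282 and 248 FPKM in the cKO libraries. Control replicate 4 lay below cKO replicate 1, and the other 3 control libraries lay above all cKO libraries. *Ldha* on the same chromosome had 72.9, 74.4, 93.8 and 61.6 FPKM in the control libraries and 57.7, 54.3, 49.9 and 49.0 FPKM in the cKO libraries, without overlap. *Ldhb*, the heart form, had 184 to 240 FPKM and 227 to 257 FPKM.

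*Pdha2* (chromosome 3, 141210004 to 141212355) encodes the germ cell form of the pyruvate dehydrogenase E1 alpha subunit. It had 105, 81.3, 85.4 and 59.4 FPKM in the control libraries and 88.9, 62.4, 66.1 and 54.4 FPKM in the cKO libraries, with overlap. Its X-linked parent *Pdha1* had 3.91 to 5.54 and 4.17 to 5.95 FPKM. The X-linked parents thus stood on opposite sides of their autosomal copies in whole testis, *Pgk1* above *Pgk2* and *Pdha1* below *Pdha2*. Which cells of the testis held the RNA of each was not tested.

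The level of each gene was compared with its paralog within each library, as the difference in log2(FPKM + 0.1), by an exact sign-flip permutation test over the 8 libraries, two-sided, with p adjusted over the 9 pairs. The smallest p this design allows is 0.00781, and 8 of the 9 pairs reached it (adjusted p = 0.00879, exact permutation test). The p of the *Pgam2* pair is not read, since it uses the cKO libraries whose low *Pgam2* put that gene on the list. That of the *Aldoart1* pair is not read either, since a gene with 1 fragment in all 8 libraries must lie below *Aldoa*. *Pdha2* was higher than *Pdha1* by 3.89 ± 0.44 (SD, n = 8) on the log2 scale, or 14.8-fold, and *Ldhc* higher than *Ldha* by 2.66 ± 0.22, or 6.32-fold, in 8 of 8 libraries each. The others lay below their paralog in 8 of 8 libraries. *Pgk2* differed from *Pgk1* by -1.92 ± 0.30, *Hk1* from *Hk2* by -1.92 ± 0.16, *Eno4* from *Eno1* by -2.02 ± 0.30, *Pfkp* from *Pfkm* by -3.55 ± 0.31 and *Pgam2* from *Pgam1* by -1.48 ± 0.82. The spread of the *Pgam2* pair was the widest of these, with -0.83 ± 0.57 in the control libraries and -2.13 ± 0.36 in the cKO libraries. *Aldoart1* lay below *Aldoa* in all 8, with the bound given above for 7 of them in place of a fold change.

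*Gapdhs* and *Gapdh* did not differ beyond their spread (-0.05 ± 0.73, SD, n = 8, exact permutation test, adjusted p = 0.875), and *Gapdhs* was the higher in 5 of 8 libraries. This pair depended on the gene length used, and a loss of *Gapdh* reads in counting was not tested. The length in the deposited table covers all annotated exons of a gene, 4133 bases for *Gapdh* against 1420 bases for its longest coding transcript. Per coding transcript, an alternative chosen after seeing the data, the difference was -1.42 with *Gapdh* the higher (exact permutation test, adjusted p = 0.00781). The same change of length took *Pfkp* against *Pfkm* from -3.55 to -2.12, *Hk1* against *Hk2* from -1.92 to -1.05, *Eno4* against *Eno1* from -2.02 to -3.43 and *Ldhc* against *Ldha* from 2.66 to 2.00, with no change of side.

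**Figure D2:**
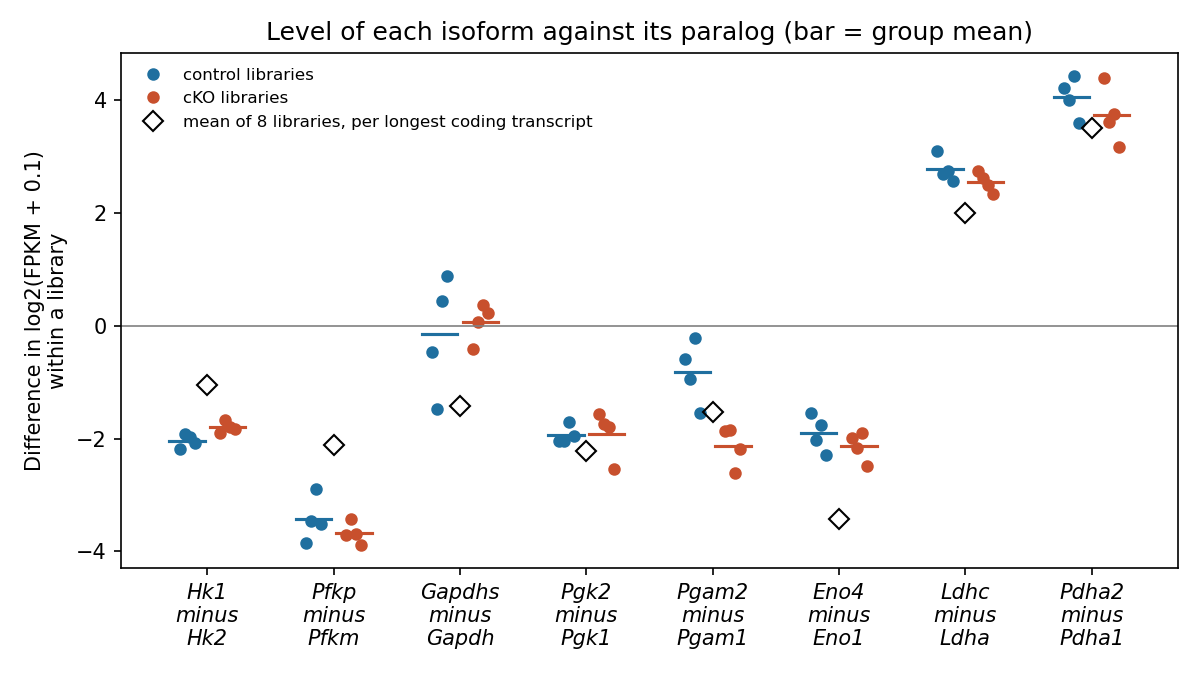
Difference in log2(FPKM + 0.1) between each isoform and its paralog within each control library (blue) and cKO library (red), with bars at the group means. Open diamonds give the mean of the 8 libraries when values are set per longest coding transcript. *Pdha2* and *Ldhc* lie above 0 in all libraries, and *Gapdhs* falls on both sides of 0.

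The share of each isoform in the summed FPKM of all isoforms of its step gave the same data as a proportion. *Pdha2* held 94.3% ± 1.37 (SD, n = 4) of the pyruvate dehydrogenase E1 alpha RNA in the control libraries and 92.9% ± 2.20 in the cKO libraries. *Ldhc* held 64.2% ± 4.68 of the lactate dehydrogenase RNA in the control libraries and 51.1% ± 5.60 in the cKO libraries. The lowest control library, at 59.1%, lay above the highest cKO library, at 57.7%. *Pgam2* held 36.4% ± 8.86 of the phosphoglycerate mutase RNA in the control libraries and 18.8% ± 3.63 in the cKO libraries, with 39.8%, 34.2%, 46.2% and 25.3% against 21.5%, 21.7%, 14.01% and 17.9%. *Pgk2* held 20.5% ± 1.88 and 21.0% ± 4.67, *Hk1* 19.1% ± 1.08 and 21.8% ± 1.25, *Eno4* 7.64% ± 1.47 and 6.64% ± 0.575 (4.95% and 4.27% per coding transcript), and *Pfkp* 7.22% ± 1.66 and 5.93% ± 0.844. *Gapdhs* held 47.7% ± 17.4 and 51.0% ± 5.92, the widest spread, and 27.2% in the control libraries per coding transcript. The *Gapdhs* share would be overstated if *Gapdh* reads were lost in counting, which was not tested. These shares are a description, since the genotype difference was in view when the genes were chosen.

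**Figure D3:**
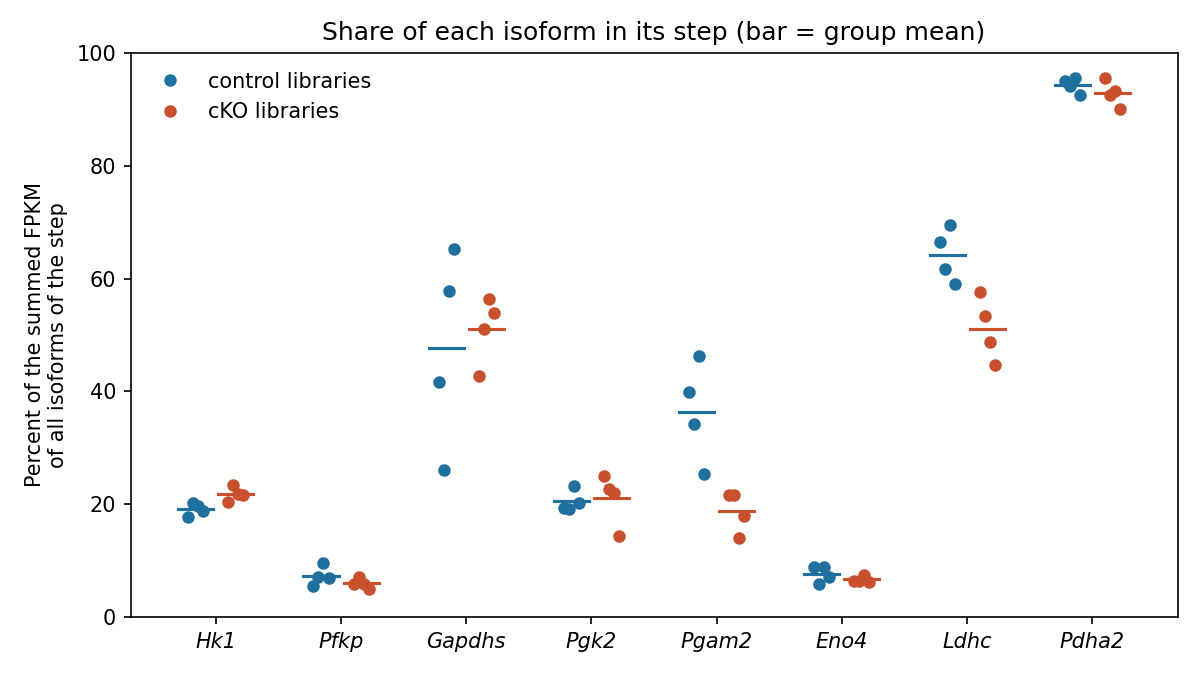
Percent of the summed FPKM of all isoforms of a step held by the named isoform, in each control library (blue) and cKO library (red), with bars at the group means. *Pdha2* holds over 90% in every library, and the groups are apart for *Pgam2* and, by narrow margins, *Ldhc* and *Hk1*. The shares were not tested, and no rate of such separation over other genes was computed.

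The difference between the genotypes was fitted with limma on log2(FPKM + 0.1) over 12141 genes, those that are protein-coding and whose mean exceeded 1 FPKM in each group. For the 10 genes it is given as a description without p, because this contrast brought *Pgam2* onto the list. Of the 10 genes 9 passed the filter, and *Aldoart1* did not. The log2 fold changes, cKO minus control, were -1.14 (standard error 0.25) for *Pgam2*, -0.73 (0.22) for *Ldhc*, -0.29 (0.17) for *Pfkp*, -0.28 (0.20) for *Pdha2*, -0.16 (0.25) for *Gapdhs*, -0.11 (0.15) for *Eno4* and -0.02 (0.19) for *Pgk2*. They were 0.19 (0.13) for *Gpi1* and 0.21 (0.12) for *Hk1*. Mean FPKM in the cKO libraries was thus 0.433 times that of the control libraries for *Pgam2* and 0.598 times for *Ldhc*, and 0.806 to 1.16 times for the other 7. The median over the 9 was -0.16, beside 0.01 over all genes tested.

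None of the 9 was called by limma at a Benjamini-Hochberg adjusted p below 0.05 with an absolute log2 fold change above 1, beside 2 of 12141 genes, or 0.0165%. With array weights, which give control replicate 1 little weight, 1 of the 9, *Pgam2*, was called, beside 57 of 12141 genes, or 0.469%, and in the other alternatives, voom among them, none was. *Pgam2* was the 1 gene of the 10 whose groups did not overlap. Over all genes tested the groups did not overlap in 2.59% with the cKO libraries lower and in 6.24% in either direction. Without control replicate 4 the count was 2, *Pgam2* and *Ldhc*, beside 6.21% of all genes with the cKO libraries lower. Without control replicate 1 it was 1, *Pgam2*, beside 5%. The latter were alternatives chosen after seeing the data, and nothing is read from these counts because the choice of the genes used the contrast. In bulk samples fewer cells of a type and less RNA per cell cannot be told apart.

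**Figure D4:**
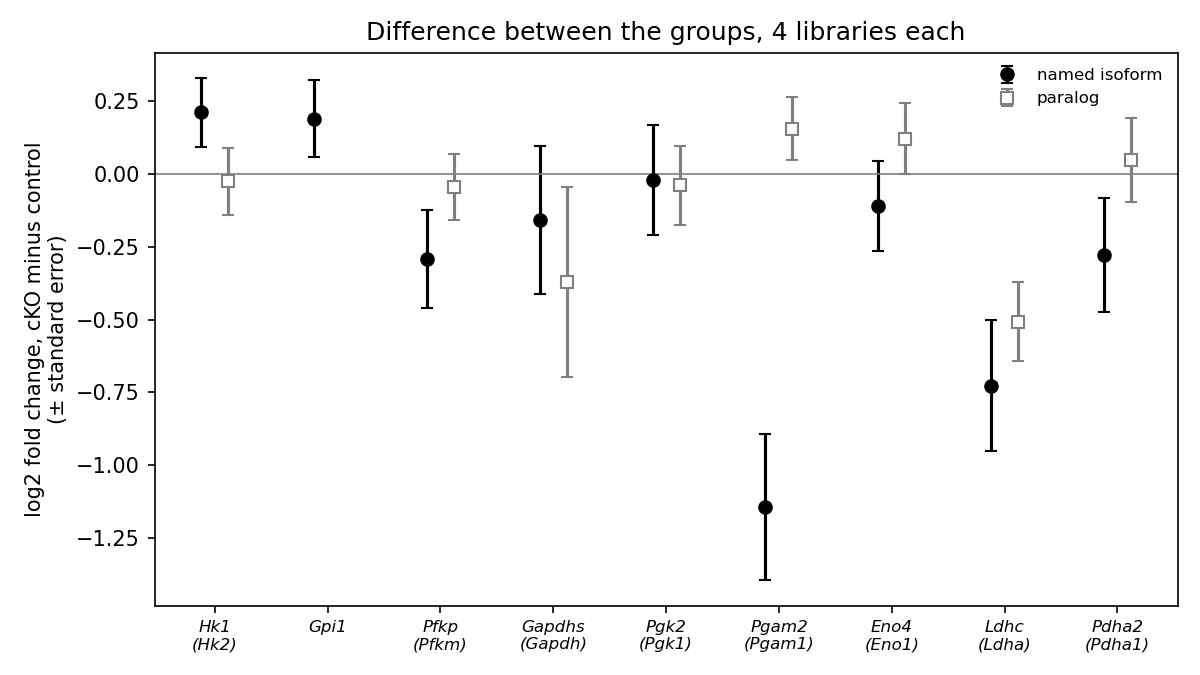
Log2 fold change, cKO minus control, with standard error, of each named isoform (filled circle) and its paralog (open square) from 4 libraries in each group. *Pgam2* has the lowest value, -1.14, beside 0.15 for *Pgam1*, whereas *Ldhc* and *Ldha* both lie below 0.

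The control libraries differed among themselves in the same order for *Pgam2*, *Ldhc*, *Eno4* and *Pgk2*. In the cKO libraries *Pgam2* and *Ldhc* did not share an order. Control replicate 4 was the lowest control library for 5 of the 9, *Pgam2*, *Ldhc*, *Pdha2*, *Eno4* and *Pgk2*, and the highest for *Gapdhs*. The share of all genes tested for which it was the lowest was not computed, so nothing is read from this count. Leaving out control replicate 4 moved the log2 fold change of *Pgam2* from -1.14 to -1.40, that of *Ldhc* from -0.73 to -0.89 and that of *Pdha2* from -0.28 to -0.43. Without control replicate 1 the *Pdha2* value was -0.16. *Gapdhs* went from -0.16 to 0.03 without control replicate 4 and to -0.39 without control replicate 1, so its sign rests on single libraries. *Pgk2* also had no settled sign, with -0.12 to 0.14 over the alternatives.

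**Figure D5:**
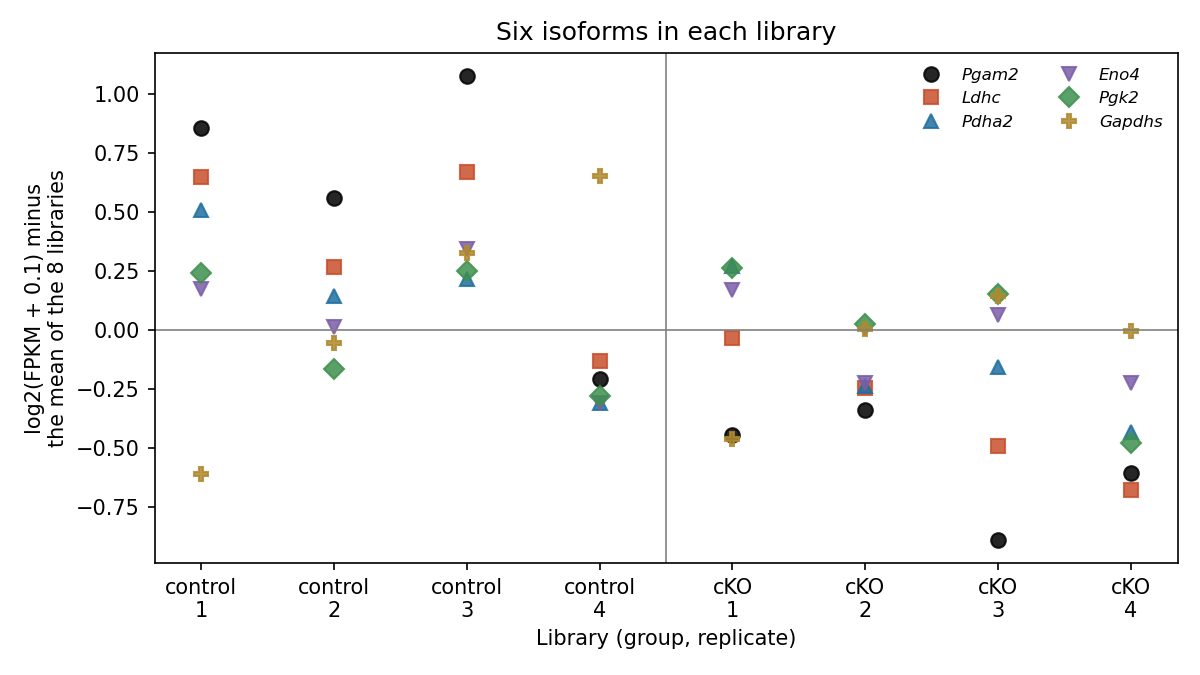
Level of 6 isoforms in each library, as log2(FPKM + 0.1) minus the mean of the 8 libraries, with control libraries left of the line and cKO libraries right of it. *Pgam2* and *Ldhc* lie above 0 in control replicates 1 to 3 and below 0 in control replicate 4 and the cKO libraries, whereas *Gapdhs* is highest in control replicate 4.

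The 3 genes whose levels followed *Pgam2* most closely were found by the root mean square distance of log2(FPKM + 0.1), centred per gene, over the 8 libraries. They were *Thegl* (0.17), *Galnt3* (0.21) and *Mgll* (0.21 log2 units). The distance spans both groups, so it holds the difference by which *Pgam2* was selected, and genes with a like difference come out near. Their log2 fold changes, cKO minus control, were -1.02, -1.22 and -1.22 in that order. Closeness within a group was not computed. *Thegl* had 4.83, 3.64, 4.68 and 2.61 FPKM in the control libraries and 1.98, 2.54, 1.27 and 1.76 FPKM in the cKO libraries. *Mgll*, which encodes monoglyceride lipase, had 12.9, 12.4, 17.7 and 9.50 FPKM and then 5.34, 8.02, 4.03 and 5.14 FPKM. *Galnt3*, which encodes a glycosyltransferase, had 7.01, 6.73, 9.67 and 5.41 FPKM and then 3.09, 3.94, 2.52 and 2.52 FPKM. As for *Pgam2*, control replicate 3 was the highest and control replicate 4 the lowest control library of *Mgll* and *Galnt3*.

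The paralogs were tested in the same fit over all genes. *Ldha* was at -0.51 on the log2 scale, cKO minus control (0.14 standard error; adjusted p = 0.229 in limma), with 4 of 4 cKO libraries below the control mean. *Pgk1* had -0.04 (0.14, limma adjusted p = 0.941) and *Pdha1* 0.05 (0.14, limma adjusted p = 0.934), the 2 parents on the X chromosome. With the standard error and the limma adjusted p in that order, *Pgam1* had 0.15 (0.11, 0.657), *Aldoa* 0.23 (0.11, 0.534), *Eno1* 0.12 (0.12, 0.778), *Hk2* -0.03 (0.12, 0.954), *Pfkm* -0.05 (0.11, 0.916) and *Gapdh* -0.37 (0.33, 0.741). The *Gapdh* value rests on control replicate 2 and was 0.02 without it. None passed the test.

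Beyond these genes, 49 other genes in 3 pathway lists were counted, and 40 of them were tested. None was called in limma, nor in voom, and 6 of the 40 fell under an unadjusted p of 0.05, beside 1322 of 12141 genes, or 10.9%. Of 27 other glycolysis genes 18 were tested, 10 with a fold change above 0 and 8 below, with a median of 0.10. Of 11 genes of the pyruvate dehydrogenase complex and its regulators 5 lay above 0 and 6 below, with a median of -0.04. Of 11 genes for hexose, lactate and pyruvate transport 4 lay above and 7 below, with a median of -0.14. The smallest p after *Ldha* were those of *Slc2a5*, a fructose transporter, and *Slc2a3*, a high-affinity glucose transporter. *Slc2a3* had 157, 129, 175 and 107 FPKM in the control libraries and 118, 98.6, 85.9 and 75.4 FPKM in the cKO libraries (-0.58 on the log2 scale, standard error 0.19, adjusted p = 0.310 in limma). *Slc2a5* had 14.7, 14.9, 17.6 and 10.7 FPKM and then 11.6, 10.4, 9.06 and 9.02 FPKM (-0.51, 0.15, limma adjusted p = 0.287). The other 3 of the 6, named after their values were seen, were *Pkm* (0.29, 0.12, limma adjusted p = 0.414), *Dlat* (-0.33, 0.13, 0.426) and *Pfkfb4* (-0.36, 0.15, 0.439).

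Marker lists of the cells a whole testis holds were summed in FPKM per library. The 10 pachytene spermatocyte markers summed to 625 to 902 in the control libraries and 536 to 810 in the cKO libraries. All 7 that were tested had a log2 fold change below 0, with a median of -0.29. None was called by limma, and 2 fell under an unadjusted p of 0.05, beside 10.9% of all genes tested. Of those tested *Adam3* had the lowest value, -0.98 (standard error 0.22), and went from a mean of 6.06 to 2.97 FPKM. *Hspa2* went from a mean of 389 to 313 FPKM and *Piwil1* from 202 to 153. *Cdk2*, also tested, was at -0.05 (standard error 0.09). Of the markers that did not pass the filter, mean FPKM went from 1.65 in the control to 0.964 in the cKO libraries for *Ccna1*. It went from 0.279 to 0.667 for *H1f6* and from 0.579 to 0.799 for *Spag6*. The sums of the 2 groups overlapped, and the part of this list in the values of *Pgam2* and *Ldhc* was not tested. The 12 spermatid markers summed to 17.9 to 25.9 and 17.1 to 24.0, with 9 below 1 FPKM in every library. Nearly all of this sum came from *Acr*, with 11.2 to 18.97 FPKM, and *Spaca1*, with 1.92 to 8.99 FPKM. *Prm1* and *Tnp1*, of the late spermatid, did not exceed 0.580 and 0.279 FPKM. The 15 skeletal muscle markers summed to 11.7 to 18.8 and 9.87 to 16.1, of which *Actn3* alone gave up to 13.3. *Actn3* went from a mean of 10.9 in the control to 7.44 FPKM in the cKO libraries (-0.585 on the log2 scale, standard error 0.281). The 2 other muscle markers tested, *Mylpf* and *Atp2a1*, lay above 0. *Ckm* lay between 0.0262 and 0.242 FPKM and 10 of the 15 stayed below 1 FPKM in every library. *Pgam2* had 13.9 FPKM or more, and the part of muscle in its value was not tested.

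The remaining lists gave the following sums. Spermatogonial markers summed to 247 to 330 in the control libraries and 322 to 338 in the cKO libraries, with 9 of 10 above 0 in fold change. The other, *Stra8*, went from a mean of 10.8 to 3.40 FPKM (-1.46 on the log2 scale, standard error 0.44). Sertoli cell markers summed to 1699 to 2744 and 2211 to 2591. Leydig cell markers summed to 20.5 to 46.3 and 33.2 to 51.0, and red blood cell markers to 10.8 to 39.8 and 22.04 to 46.7. Peritubular smooth muscle markers summed to 45.6 to 76.6 and 75.4 to 105, and macrophage markers to 14.3 to 25.5 and 27.4 to 34.6, the latter without overlap. No gene of these lists was called, where 2 of 12141 genes were. Of the genes tested, 4 of 6 macrophage, 3 of 5 Leydig and 3 of 10 spermatogonial markers fell under an unadjusted p of 0.05 in limma. The counts were 1 of 4 for peritubular, 1 of 3 for red blood cell and 0 of 10 for Sertoli markers, beside 10.9% of all genes. All 6 macrophage markers lay above 0 in fold change. In the peritubular list *Acta2* went from a mean of 49.5 to 72.8 FPKM. The part of these cells in the values of *Pgam2* and *Ldhc* was not tested.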

How the data were processed

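Testis RNA of 4 control and 4 cKO mice was sequenced as paired ends by a company, whose Novomagic software made the FPKM values the authors deposited, for 54532 genes with a gene length, in a series table and in a file per library that differed in 0 rows. The aligner, counter and use of strand are not given in the sources used here. Builds named in the submitters' processing notes are GRCm38 and mm10, and 98.3% of the genes had the start and end of GENCODE vM21. FPKM times length gave whole fragments for 100% of values above 0 (tolerance 0.02), 13978342 to 19583091 per library. Intervals and limits from these counts cover counting error only.

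Groups were taken from the sample labels. The count-based test of the study's methods was not run here, since the deposited unit is FPKM. Instead limma 3.58.1 (R 4.3.3, lmFit and eBayes with trend) was run on log2(FPKM + 0.1), over the protein-coding genes whose mean exceeded 1 FPKM in each group. This scale understates the change of low genes. The fit was tested on simulated fragments for 12141 genes. Pairs were tested by exact sign-flip permutation. Motifs were searched in the RefSeq promoter table and coding sequences aligned with Biopython 1.88. Figures used matplotlib 3.10.9. The genes and lists were chosen with earlier results of these data known. The text names the 10 genes, their paralogs, the 3 pathway genes with the smallest limma p where none was called, and the 3 genes nearest to *Pgam2*. Alternatives were other pseudocounts, filters, scalings, weights, a replicate block, voom and leaving out each library.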

Additional observations from a re-analysis of the deposited data

Results flagged for a closer look

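Each group of 4 libraries was searched for a library far from the other 3. Of 78 groups of values 3 were flagged, where chance flags about 1 in 20 groups, or 3.9 here. *Gapdh* was 9.62 FPKM in control replicate 2 and 3.00 to 3.25 FPKM in the other control libraries. The *Eno4* share of enolase RNA was 7.495% in cKO replicate 3 and 6.25% to 6.42% in the other cKO libraries. Fragments on mitochondrial genes were 0.464% in control replicate 1 and 2.97% to 3.39% in the other control libraries.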

How the results depend on the processing

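The count of differentially expressed genes over all genes, 2 in the limma fit, was 0 with a filter at a mean of 5 FPKM, 4 over all biotypes, 1 after centring on the autosomal median, 1 after rescaling to TPM and 57 with array weights. It was 0 to 3 when each library was left out, with 0 without control replicate 2 or 3 or cKO replicate 1, 3 or 4. With the replicate block it was 0, but no source says that the numbers mark litters. Deviations of same-numbered libraries from their group means correlated at 0.0757 to 0.406, below 0.1 for 1 of 4 pairs, and 5 of 8 libraries correlated best with their own number, a hint from the data and not the design. Other pathway genes called stayed at 0 in every alternative. The *Gapdhs* against *Gapdh* difference of -0.05 was 0.14 as a median, 0.059 in the cKO libraries alone, -1.42 per longest coding transcript, and -0.18 to 0.16 when each library was left out. The other 8 pairs kept their direction in all alternatives. The p of the *Pgam2* and *Aldoart1* pairs is not read here either, and the direction of the *Aldoart1* pair was fixed by its 1 fragment. The rest of the 8 kept their side of the threshold in the alternatives with a test (a single group of 4 allows none). Per longest coding transcript the control share of *Hk1* was 30.3%, of *Pfkp* 16.7% and of *Eno4* 4.95%. Low counts limit *Gapdhs* (48 to 148 fragments) and *Pgk2* (90 to 174).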
